A study of Bos taurus with 47 samples.

Results

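A set of 5 identifiers listed as genes of plasma proteins that the liver secretes was followed through 15 tissue labels of Holstein cattle. These are ENSBTAG00000017121 (listed as ALB), ENSBTAG00000002258 (APOA1), ENSBTAG00000007273 (TF), ENSBTAG00000000522 (AHSG) and ENSBTAG00000006354 (HP). All 5 were present among the 24616 identifiers of the deposited table, and all 5 passed the requirement of a mean of at least 10 FPKM over the 4 liver libraries. The unit, FPKM, scales fragments to transcript length and library size, so levels of different genes are comparable per length. The lowest liver mean was 141 FPKM (HP), and no listed gene fell below the requirement. The genes were chosen for their level in liver, so liver against other tissues is described here without a test.

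The libraries number 47 and come from Holstein cattle, with no treatment in the labels and ages not given in the sources used here. Liver, kidney, lung, heart, spleen, muscle, rumen, ileum, adipose tissue and frontal cortex were each sampled in 2 males, male A (liver library LIVE3770) and male B (LIVE3773), and in 2 females (LIVE3842 and LIVE3886). The female of LIVE3842 gave the only lactating mammary gland and is called the lactating cow, and that of LIVE3886 gave the only dry gland and is called the dry cow. Ovary and uterus came from both females, and lymphocytes from 1 other male (LYMP4254). Summed FPKM ran from 576130 to 964931 per library. Depth as a number of fragments is unknown, and relative depth, read from the steps between low values, ran from 0.780 to 1.56 times the median library.

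Plasma proteins are made mainly by hepatocytes, which secrete them into blood. Albumin, encoded by ALB, maintains the colloid pressure of plasma and carries fatty acids and hormones. Transferrin, encoded by TF, carries iron. Fetuin-A, encoded by AHSG, keeps calcium phosphate in solution. Haptoglobin, encoded by HP, binds haemoglobin released from red cells, and in cattle it is a major acute-phase protein. Apolipoprotein A-I, encoded by APOA1, is the main protein of high density lipoprotein and is made by liver and small intestine. Outside liver, transferrin is also made by oligodendrocytes and the choroid plexus of the brain, and haptoglobin is stored in the granules of neutrophils.

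The gene names came with the list of identifiers. The deposited table does not pair identifiers with names, and 0 of its identifiers matched the reference table used here, so tissue labels could not be checked against named markers either. ALB, TF and AHSG were far higher in liver than in any other label, and HP was highest there too. The identifier listed as APOA1 was not: it stood at 6249 FPKM in the ovary of the lactating cow and 931 in the ovary of the dry cow, against 149 to 299.8 in the 4 livers. Its ovary mean was 16.5 times its liver mean, and its ileum mean also exceeded its liver mean. This pattern goes against a gene expressed chiefly in liver, and the gene is called ENSBTAG00000002258 in what follows, with no statement about its product.

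**Figure D1:**
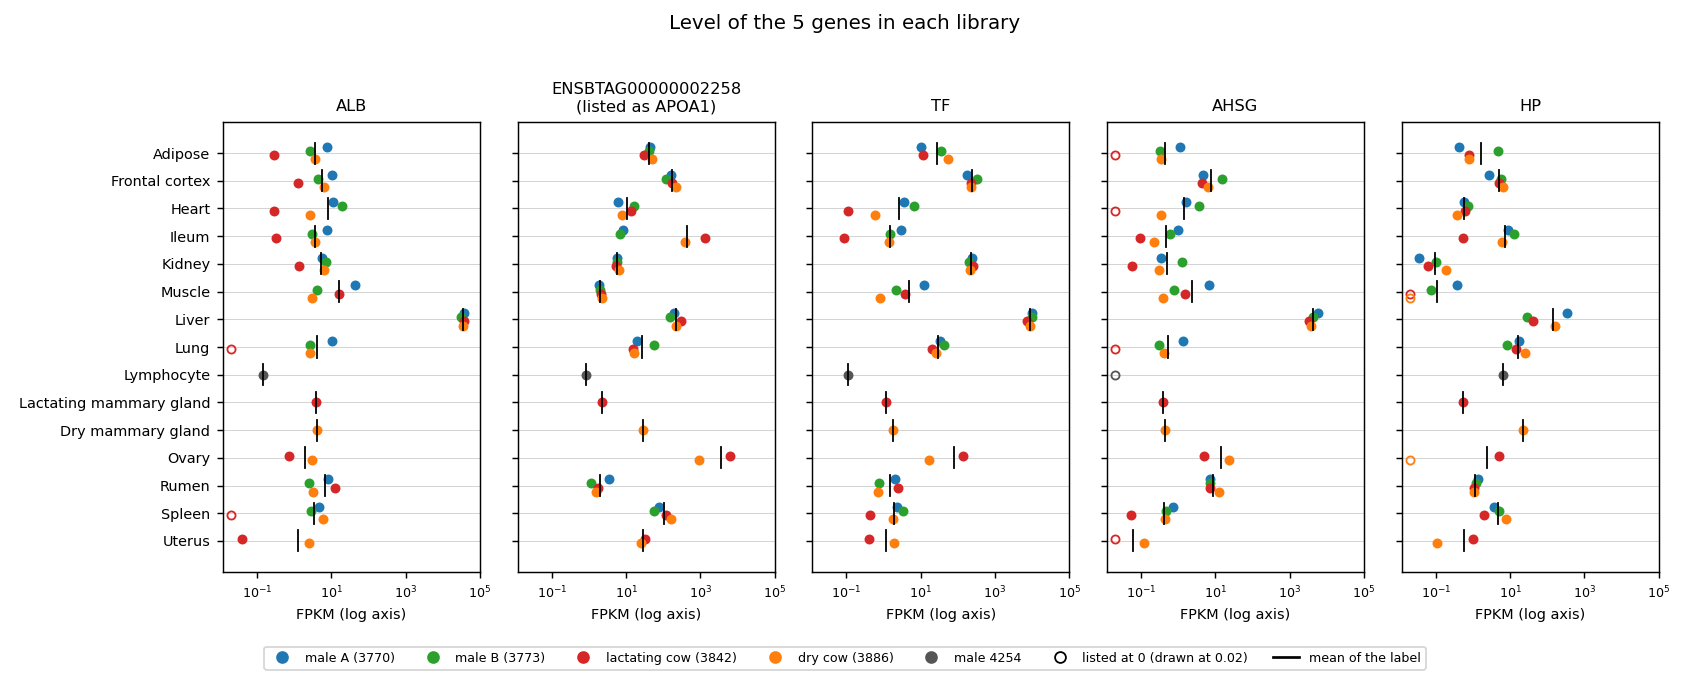
FPKM on a log axis of the 5 genes in each of 47 libraries, grouped by tissue label, with points coloured by animal, the mean of each label as a vertical bar and values listed at 0 as open circles. ALB, TF, AHSG and HP had their highest mean in liver, while ENSBTAG00000002258 had it in ovary.

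ALB was the most abundant gene in liver. Its liver values were 36203 FPKM in male A, 30765 in male B, 37096 in the lactating cow and 34196 in the dry cow, with a mean of 34565 ± 2809 (SD, n = 4). The 4 animals lay within 1.21-fold of each other. The next label, muscle, had a mean 2123 times lower. In such tissue samples, fewer cells of a type and less RNA per cell cannot be told apart.

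TF ranked 6 and AHSG ranked 16 by mean level in liver. TF stood at 9925, 9669, 7152 and 8982 FPKM in the livers of male A, male B, the lactating cow and the dry cow, a mean of 8932 ± 1252 (SD, n = 4). AHSG stood at 5947, 4305, 3357 and 3760 FPKM in the same order, a mean of 4342 ± 1138. Both genes were lowest in the lactating cow, the animal with the highest ALB. The ratio of ALB to TF was 5.19 in the lactating cow and between 3.18 and 3.81 in the other 3 livers, and the ratio of ALB to AHSG ran from 6.09 in male A to 11.05 in the lactating cow.

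HP and ENSBTAG00000002258 were much less abundant in liver, at ranks 643 and 443. HP stood at 336 FPKM in male A, 28.7 in male B, 41.8 in the lactating cow and 158 in the dry cow, so that 1 male and 1 female were high and the other 2 animals low. Its mean was 141 ± 142 (SD, n = 4). ENSBTAG00000002258 stood at 199, 149, 299.8 and 220.5 FPKM in that order, a mean of 217 ± 62.7. Together the 5 genes held 7.23% ± 0.403 of the summed liver FPKM (SD, n = 4), of which ALB alone made up 71.7% ± 4.13.

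HP varied between livers far more than the other 4 genes. The highest liver was 11.7 times the lowest for HP, 2.01 times for ENSBTAG00000002258, 1.77 times for AHSG and 1.39 times for TF. The SD of log2(FPKM + 1) over the 4 livers was 1.63 for HP and 0.12 for ALB. Over the 4778 genes with at least 10 FPKM in liver the median SD was 0.20, and 17 of them (0.356%) had a larger SD than HP. For ALB, 81.3% of them varied more.

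**Figure D2:**
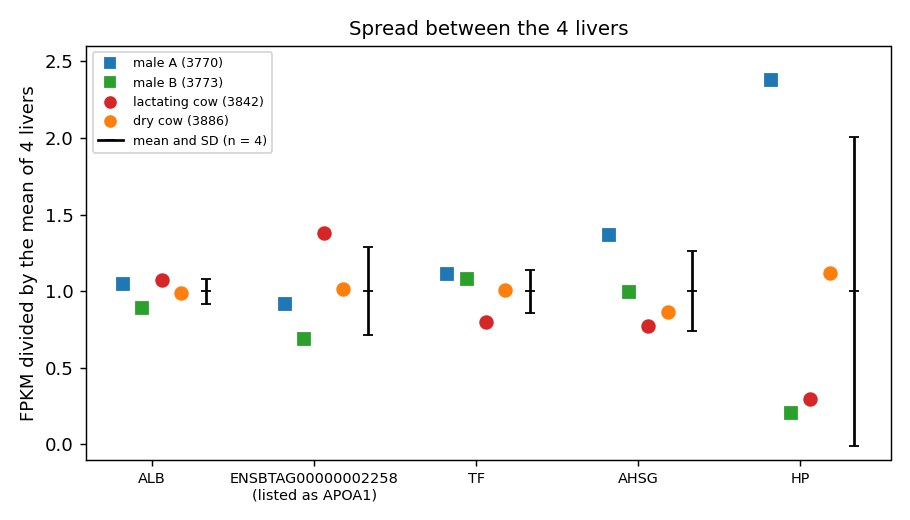
FPKM of the 5 genes in each liver divided by the mean of the 4 livers, squares for males and circles for females, with the mean and SD (n = 4) beside the points. ALB stayed within 1.21-fold across the animals, while HP spanned 11.7-fold with 1 male and 1 female high.

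The livers of the 2 males and 2 females were compared because the choice of genes did not use how animals differ. On the log2(FPKM + 1) scale, which understates changes of low values, male minus female was -0.09 for ALB (SE 1.04), -0.57 for ENSBTAG00000002258 (SE 0.48), 0.29 for TF (SE 0.65), 0.51 for AHSG (SE 0.50) and 0.28 for HP (SE 0.80). None of the 5 was called by limma, with adjusted p from 0.795 to 1 and 0 of 5 at an unadjusted p under 0.05. Over all 16503 genes tested, 0.491% were called. The median difference of all genes was 0.09.

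The SE in that fit comes from the spread over 10 tissues, where ALB differs widely between libraries at trace level. A limma fit on the 4 livers alone, added after the data were seen, called 0 of all 11332 genes tested, so its 0 of 5 says nothing particular about these genes (adjusted p from 0.517 to 0.938, 0 of 5 at an unadjusted p under 0.05). For HP the difference became -1.47 without male A, 2.03 without male B and -0.67 without the lactating cow. The difference between the sexes in liver did not separate from that in the other 9 tissues for any of the 5 genes (limma adjusted p 0.999979, 0 of 5 at an unadjusted p under 0.05, against 0.194% of all genes called).

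Genes restricted to liver were present as traces in most libraries of other tissues, and the 5 genes were read beside them. The reference was 16 genes other than the 5, each with a liver mean of at least 2000 FPKM that exceeded all other label means by 100-fold or more. Their median level in a library was expressed in ppm, parts in 1000000 of their liver level. It lay between 59.0 and 1340 ppm in 33 libraries outside liver. In another 10 libraries it lay between 0 and 33.3 ppm. Those 10 were set apart by genes restricted to rumen (under 40 ppm of their rumen level) and comprise 9 from the lactating cow and that of the lymphocytes. Outside liver the reference had a median of 279 ppm in libraries of male A, 102 in those of male B, 103 in those of the dry cow and 2.24 in those of the lactating cow. Where these traces came from was not tested.

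ALB outside liver ran close to that reference. In muscle it stood at 42.1 FPKM in male A, 4.07 in male B, 15.8 in the lactating cow and 3.08 in the dry cow, and the reference there was 1340, 149, 459 and 92.1 ppm in the same order. In the 33 libraries ALB lay between 2.44 and 42.1 FPKM, and its ppm of the liver mean was 0.711 to 1.78 times the reference, with a median of 0.914. All 33 were within 2-fold of it. In the 10 libraries low in traces ALB lay between 0 and 1.38 FPKM, with a median of 0.286, and the lung and spleen of the lactating cow were listed at 0. ALB itself meets the 2 requirements for a reference gene, as does AHSG, so a low level elsewhere is shared by construction.

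Below liver, no label stood apart for ALB. After muscle (16.3 FPKM ± 18.2, SD, n = 4) came heart (8.36 ± 8.62), rumen (6.60 ± 4.84), frontal cortex (5.65 ± 3.93) and kidney (5.14 ± 2.61), and each of these overlapped the next. Lymphocytes were lowest, at 0.148 FPKM. By animal, the median over tissues outside liver was 7.90 FPKM in male A, 2.95 in male B, 3.34 in the dry cow and 0.532 in the lactating cow.

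TF had a second tier far above the traces. In frontal cortex it stood at 174 FPKM in male A, 318 in male B, 226 in the lactating cow and 227 in the dry cow. In kidney it stood at 236, 199, 254 and 211 FPKM in the same order. The ranges of these tissues overlapped, and every library of either exceeded every library of all labels but liver. Cortex had 2.65% and kidney 2.52% of the liver mean. The cortex and kidney of the lactating cow, where the reference was 0 and 33.3 ppm, held as much TF as those of the other animals.

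Lower levels of TF were found in ovary, lung and adipose tissue. The ovary of the lactating cow had 136 FPKM and that of the dry cow had 16.5, an 8.29-fold difference between the 2 cows. Lung lay between 20.4 and 41.0 FPKM and adipose tissue between 10.4 and 54.3, with overlapping ranges. In the 3 lungs among the 33 libraries TF was 10.2 to 45.1 times the reference, and in the 3 adipose libraries 4.17 to 67.3 times.

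Elsewhere TF was near the level of the traces in most libraries. In the 20 of the 33 libraries that were not cortex, kidney, lung, adipose tissue or ovary, it was 0.517 to 4.02 times the reference, with a median of 1.08, and 2 libraries exceeded 2-fold (a spleen and a uterus). Muscle ranged from 0.784 to 12.1 FPKM, heart from 0.107 to 6.47 and ileum from 0.0832 to 2.88. Lymphocytes had 0.108 FPKM, 3.42 times the reference. In the spleen, uterus and heart of the lactating cow, where the reference was 0, TF had 0.419, 0.412 and 0.107 FPKM.

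AHSG stood above the traces in rumen, frontal cortex and ovary. Rumen had 7.30 FPKM in male A, 7.19 in male B, 7.27 in the lactating cow and 12.4 in the dry cow. Frontal cortex had 4.69, 15.2, 4.48 and 6.45 FPKM in the same order. The ovary of the lactating cow had 4.80 FPKM and that of the dry cow had 22.8, the reverse order of TF. The 3 labels overlapped, and their means were 0.177% to 0.318% of the liver mean.

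Set against the reference, AHSG was 3.24 to 28.3 times higher in the 4 rumen libraries, 3.87 to 49.6 times in 3 cortex libraries and 53.6 times in the ovary of the dry cow. The cortex of the lactating cow and the ovary of the lactating cow had AHSG while the reference there was 0. In the 25 other libraries of the 33, AHSG was 0.314 to 1.61 times the reference, with a median of 0.860. It was listed at 0 in lymphocytes and in the adipose tissue, heart, lung and uterus of the lactating cow, all of them low in traces.

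**Figure D3:**
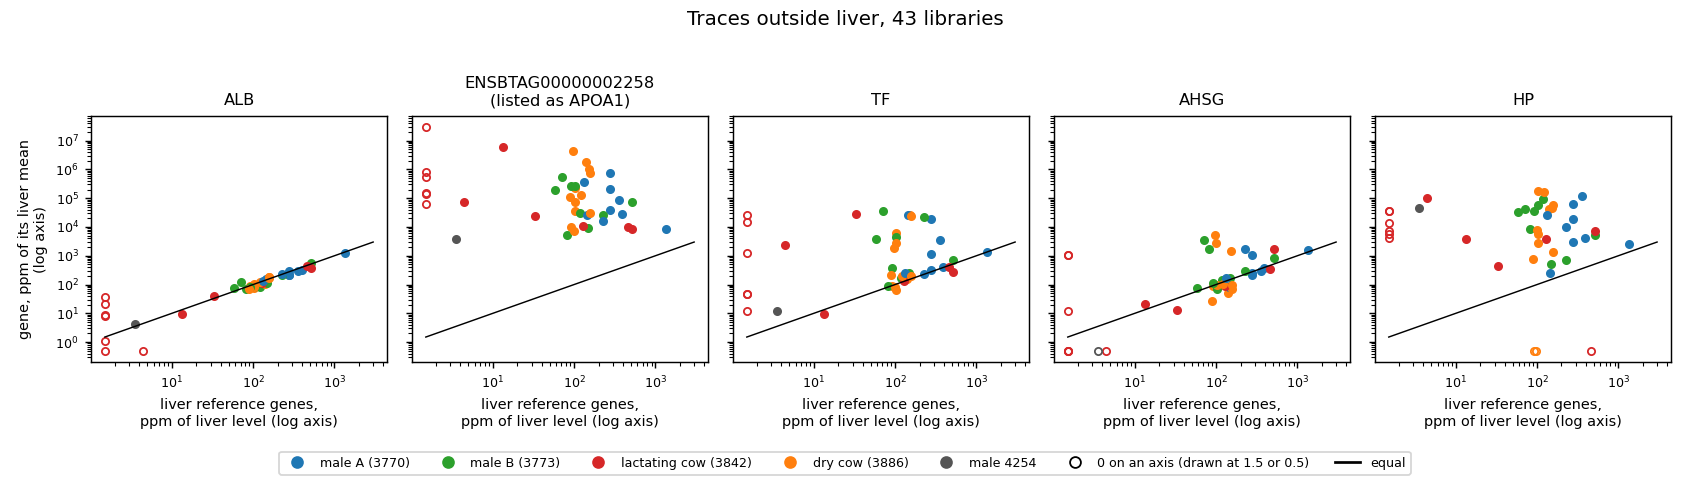
Level of each gene in ppm of its liver mean against the median of 16 other liver-restricted genes, both on log axes, in 43 libraries outside liver, coloured by animal, with a line where both are equal and open circles where a value is 0. ALB followed the line, TF and AHSG left it in some tissues, while in the 33 libraries with traces HP exceeded it by over 2-fold in 28 and ENSBTAG00000002258 in 33. These last genes have liver means of 141 and 217 FPKM, so low values outside liver already lie above the line.

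HP had the smallest distance between liver and other tissues among the 4 genes that were highest in liver. The dry mammary gland of the dry cow had 22.9 FPKM and the lactating gland of the lactating cow had 0.544, 1 library each. Lung had 17.2 FPKM in male A, 8.48 in male B, 14.2 in the lactating cow and 24.6 in the dry cow. The highest lung was just under the lowest liver, at 28.7 FPKM. The lung mean was 11.4% of the liver mean.

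Below lung, HP was found in ileum (8.94, 12.99, 0.523 and 6.03 FPKM in male A, male B, the lactating cow and the dry cow), in lymphocytes (6.37), in frontal cortex (2.67 to 6.55) and in spleen (1.96 to 7.87), and each of these overlapped the next. Of the 2 ovaries, the lactating cow had 4.88 FPKM and the dry cow was listed at 0. Kidney, at 0.0346 to 0.189 FPKM, and muscle, at 0 to 0.368, were lowest. In 28 of the 33 libraries HP exceeded the reference by over 2-fold, and in the lymphocytes, where the reference was 3.54 ppm, HP had 4.52% of its liver mean. With a liver mean of 141 FPKM, very low HP values already exceed the reference. The kidney of male B, at 0.101 FPKM, was 3.20 times it.

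ENSBTAG00000002258 had its highest values in ovary and in the ilea of the females. Ileum stood at 8.51 FPKM in male A, 6.86 in male B, 1347 in the lactating cow and 386 in the dry cow, so that the lower female was 45.4 times the higher male. This difference between sexes was not tested. Frontal cortex had 118 to 216 FPKM and overlapped liver. Spleen had 56.7 to 161.5 FPKM, adipose tissue 31.2 to 51.1, lung 15.6 to 55.9 and uterus 24.5 and 31.7.

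At the other end of the order, ENSBTAG00000002258 was low in all animals. Kidney had 5.37 to 6.49 FPKM, muscle 1.87 to 2.24, rumen 1.12 to 3.56 and lymphocytes 0.819. The dry gland had 28.5 FPKM and the lactating gland 2.26, with 1 library each. All 33 libraries exceeded the reference by over 5-fold. With a liver mean of 217 FPKM, low values outside liver already exceed the reference, as for HP.

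Differences between tissues outside liver were tested on the 43 libraries that are not liver, since the choice of genes used liver alone. With limma, over 16540 genes, 11 labels with 2 or more libraries were each compared with the unweighted mean of the remaining 13. A call required an adjusted p under 0.05 and a log2(FPKM + 1) difference no smaller than 1. Of the 55 combinations of gene and tissue, 14 were called higher and 12 lower. Over all genes, 5.50% to 22.5% were called higher and 2.10% to 40.9% lower, depending on the label. The mean of the remaining labels includes those where a gene is high, so lower calls of a gene are not independent of its higher calls.

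Frontal cortex and ovary each had 3 of the 5 genes called higher and 0 lower. Among all genes tested, 22.5% were called higher and 13.2% lower in frontal cortex, and 9.35% higher and 5.80% lower in ovary. Lung had 2 genes higher and 0 lower (17.0% and 2.82% of all genes), and adipose tissue had 1 and 0 (9.75% and 5.73%). Kidney had 1 higher and 2 lower (15.8% and 9.27% of all genes), rumen 1 and 2 (8.79% and 12.6%), and muscle 1 and 2 (5.50% and 40.9%). Ileum and spleen each had 1 higher (18.5% and 14.8%) and 1 lower (2.10% and 7.38%). Heart had 0 higher and 2 lower (8.86% and 25.0%), and uterus 0 and 2 (10.4% and 5.44%). With 5 genes a share is coarse, and 2 of 5 lower in muscle is near its background.

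TF, the iron carrier, was called in 10 of 11 labels, 5 in each direction. How many of all genes were called in as many labels was not counted. Frontal cortex was higher by 5.24 (SE 0.45, limma adjusted p 2.14e-12) and kidney by 5.19 (SE 0.45, adjusted p 5.33e-12). Ovary, lung and adipose tissue were higher by 2.82, 2.05 and 1.65 (SE 0.62, 0.45 and 0.45). The differences were -2.13 in uterus, -1.97 in ileum, -1.89 in rumen, -1.66 in spleen and -1.64 in heart. The mean they were set against includes the labels with high TF, so these lower calls are not separate from the higher ones. Without the lactating cow the difference was 1.04 in ovary (adjusted p 0.301) and -1.76 in uterus (adjusted p 0.0740). Each of these labels then has 1 library, which is assumed to vary like the other labels. Without the dry cow the adipose difference was 0.95 (adjusted p 0.107). In muscle the difference was -0.95 with an adjusted p of 0.0505. With the animal as a block, a fit without lymphocytes, TF was called lower there (-1.29, adjusted p 0.00790). Leaving out the lymphocytes alone also gave this call (-1.19, adjusted p 0.0154).

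AHSG was called higher in ovary by 2.62 (SE 0.47), in rumen by 2.25 (SE 0.34) and in frontal cortex by 1.99 (SE 0.34), with limma adjusted p of 3.12e-05, 8.03e-07 and 4.25e-06. It was called lower in 0 of 11 labels by limma. Its uterus difference of -1.12 had an unadjusted p of 0.0222 and an adjusted p of 0.0500022, just over the threshold, and was called under 3 alternatives. Without the dry cow the ovary difference was 1.53 (adjusted p 0.0800), from 1 remaining library that is assumed to vary like the other labels. Rumen and cortex kept their calls without each animal in turn.

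HP was called higher in lung, by 2.42 (SE 0.37, limma adjusted p 9.72e-07), and lower in kidney (-1.76), muscle (-1.75), uterus (-1.28) and heart (-1.20). Ileum (0.94) and frontal cortex (0.83) had adjusted p of 0.0269 and 0.0415 but missed the required difference of 1. HP in ileum was called higher under 5 alternatives, with the difference at 1.63 (adjusted p 8.96e-05) without the lactating cow, and in frontal cortex under 3. The uterus call was lost without male A (-1.28, adjusted p 0.0633) and without the dry cow, which leaves 1 uterus (-0.69). With the animal as a block, a fit without lymphocytes, it was also lost (-1.11, adjusted p 0.0776). Leaving out the lymphocytes alone had the same result (-1.19, adjusted p 0.0524). Higher calls over all genes moved as well. In ileum they went from 3054 of 16540 to 4428 with a pseudocount of 0.1. They were 2792 of 16382 without the lactating cow and 3172 of 16355 without the dry cow. They were 3429 of 16348 without the libraries low in traces and 3291 of 16491 without lymphocytes. In frontal cortex 3722 became 4568 with that pseudocount, 4659 after rescaling and 3713 of 16418 without male A. In spleen 2442 became 3658 with that pseudocount.

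ALB was called in 1 label, muscle, where it was higher by 1.55 (SE 0.63, limma adjusted p 0.0239). The ppm of ALB in the 4 muscles was 0.792 to 0.999 times the reference. With the trace of the reference genes subtracted from every gene, an alternative added after the data were seen, the difference was -0.23 (adjusted p 0.149). All 4 muscles were then at 0, since remainders below 0 were set to 0, so this difference could not exceed 0. With no subtraction, the difference was 1.09 without male A (adjusted p 0.136) and 0.97 without the lactating cow (adjusted p 0.0875).

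ENSBTAG00000002258 was called higher in ovary by 7.24 (SE 0.92, limma adjusted p 1.36e-07), in frontal cortex by 3.07 (SE 0.67), in spleen by 2.24 (SE 0.67) and in ileum by 1.93 (SE 0.67). It was called lower in rumen (-3.21), muscle (-3.13) and kidney (-1.87). The ileum call was lost without either female (0.46 and adjusted p 0.559 without the lactating cow, and 1.10 and 0.267 without the dry cow).

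**Figure D4:**
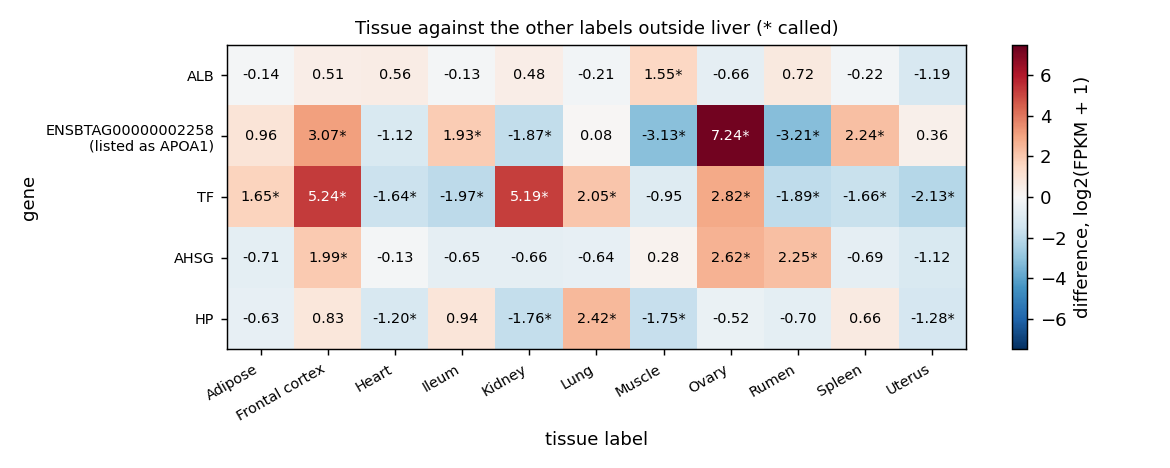
Difference on the log2(FPKM + 1) scale between a tissue label and the mean of the other labels outside liver, for 5 genes and 11 labels, with an asterisk where a difference was called. TF was called in 10 labels and ALB in muscle only. TF in muscle was added with the animal as a block, a fit without lymphocytes, and also when lymphocytes alone were left out.

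The likeness of a gene was measured by the Pearson correlation of mean log2(FPKM + 1) over 15 labels, among 16633 other genes. These points share the libraries and the traces, so the values are descriptive. For ALB the closest gene was ENSBTAG00000001638 (r = 0.992), with a mean of 5018 FPKM in liver and label means of at most 2.73 elsewhere, and 142 genes reached 0.9. For AHSG 105 genes reached 0.9, for TF 2, and for HP and ENSBTAG00000002258 0, with highest values of 0.894 and 0.880. These values include liver, by which the genes were chosen. Over the 14 labels outside liver, 0 genes reached 0.9 for ALB, 1 for AHSG, 4 for TF, 1 for HP and 1 for ENSBTAG00000002258, so the order of the 5 genes was not kept. There ENSBTAG00000001638 was again closest to ALB (r = 0.889), and the highest value was 0.962, for ENSBTAG00000002258. Among the 5 genes, ALB and AHSG correlated at 0.93 over 15 labels and at 0.32 over the 14 labels outside liver.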

How the data were processed

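The authors deposited 1 table of FPKM values per gene and library. Trimmomatic 0.39, STAR, Cufflinks and the assembly UMD3.1 are named, per the submitters' processing notes, and the sources used here give neither settings nor annotation. The table has 51 columns, of which 47 matched a sample by name, and the remaining 4 were left aside. By their names those 4 are further mammary gland and lymphocyte columns. Their values were not compared with the 1 library used for each of these labels. For male A the muscle column (LDOR3770) was matched to the title LDO3770. The series design states 4 individuals and 14 tissues, while the labels give 5 animals and 15 tissue labels, which were used.

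Values were taken as log2(FPKM + 1) and modelled in limma 3.58.1 (R 4.3.3), with a trend in the moderated variances (two-sided, Benjamini-Hochberg adjustment over all genes tested). Genes needed at least 1 FPKM in at least 2 libraries of the fit, and all 5 genes passed. The fits were run on simulated data with libraries drawn independently, which does not cover libraries of the same animal deviating together. Levels and figures were made in Python 3.11.15 with matplotlib 3.10.9, pandas 2.3.3 and numpy 2.4.6. Sexes were compared over 40 libraries in 20 cells of tissue and sex. No counts are part of the table, so no counting interval was computed, and an exact 0 can be a failed estimate.

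Libraries of the same animal deviated together from their tissue means (median correlation across genes 0.182 over 180 pairs, against -0.063 between animals). Deviations from a tissue mean cancel over its animals, so the between-animal value largely follows from the same-animal value and is not separate evidence. The animal number pairs libraries because it names the same animal. The genes, lists and tests were chosen with earlier results of these data known. The genes described are the 5 listed and the 1 most like ALB. Lists of other plasma protein genes and of cell type markers, set by gene symbol, could not be applied because no identifier could be matched to a symbol. For the same reason no sequence is printed. Alternatives were another pseudocount (0.1), no filter, 2 scalings, each animal left out, the animal as a block, libraries low in traces or lymphocytes left out, and other reference genes.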

Additional observations from a re-analysis of the deposited data

Results flagged for a closer look

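In 3 of 50 groups of 4 libraries, 1 library stood apart from the other 3, by the gap to its nearest neighbour relative to the group's range. For independent, normally distributed values, chance alone gives about 1 in 20 groups, or 2.5 here. These groups are FPKM values that share animals and libraries, so the rate for them is not known. AHSG in rumen was 12.4 FPKM in the dry cow against 7.19 to 7.30 in the other 3 animals. ENSBTAG00000002258, listed as APOA1, was 55.9 FPKM in the lung of male B against 15.6 to 19.3 in the other lungs. HP in adipose tissue was 4.72 FPKM in male B against 0.433 to 0.804 in the other 3 animals.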

How the results depend on the processing

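The 14 higher and 12 lower calls outside liver became 12 to 14 and 11 to 13 without each animal in turn, and 13 to 16 and 11 to 13 under the other alternatives. Calls over all genes moved too, as given above for HP. With the replicate block (the animal as a block, without lymphocytes) there were 14 and 12, HP in uterus was lost and TF in muscle (-1.29, adjusted p 0.00790) was gained. No other call changed with the block. TF in muscle was also called lower in 5 further settings. Other calls gained were HP higher in ileum (pseudocount 0.1, and without the lactating cow, the dry cow, the libraries low in traces or the lymphocytes), in frontal cortex (pseudocount 0.1, rescaling, without male A) and in spleen (pseudocount 0.1, without the libraries low in traces). HP was called lower in ovary without the lactating cow or the libraries low in traces, and in adipose tissue without male B. AHSG was called lower in uterus (pseudocount 0.1, quantile normalization, without lymphocytes) and, under quantile normalization, lower in ileum and higher in muscle. ENSBTAG00000002258 was called lower in heart after rescaling, and ALB higher in frontal cortex after subtracting traces. ENSBTAG00000002258 in ileum was lost under quantile normalization (1.49, adjusted p 0.0829) and without the 10 libraries low in traces (0.39, adjusted p 0.592). HP in heart was lost under quantile normalization (-0.70, adjusted p 0.0847). ALB in muscle was at -0.23 when liver traces were subtracted, which set all 4 muscles to 0, so that a positive difference was not possible. It was lost with a pseudocount of 0.1 (2.13, adjusted p 0.0507) and without the 10 libraries low in traces (0.97, adjusted p 0.0585). Leaving out those 10 leaves 1 ovary and 1 uterus, assumed to vary like the other labels, and TF was then not called in ovary (0.94, adjusted p 0.324) or uterus (-1.86, adjusted p 0.0515). HP in uterus was lost with no filter (adjusted p 0.0522), with a pseudocount of 0.1 (-1.94, adjusted p 0.0674) and without lymphocytes (-1.19, adjusted p 0.0524). Quantile normalization moved the median difference of all genes in a contrast by -0.45 to 0.63, and rescaling to the same sum moved it by -0.20 to 0.24. No called direction reversed under either.

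In liver, male minus female was -0.21 to 0.024 for ALB and -1.47 to 2.03 for HP when each animal was left out (reversed without male B for ALB, at 0.024, and without male A, at -1.47, or the lactating cow, at -0.67, for HP), and 0 of 5 genes were called in any setting. Quantile normalization gave a liver mean of 26904 FPKM for ALB. It gave a ratio of highest to lowest liver of 1 for ALB, by construction for the top gene, and 1.78 for TF. Leaving out animals gave liver means of 33721 to 35832 (ALB), 189.6 to 239.8 (ENSBTAG00000002258), 8601 to 9525 (TF), 3808 to 4671 (AHSG) and 76.1 to 178 (HP). Outside liver the same gave 7.67 to 20.7 for ALB in muscle, 931 to 6249 for ENSBTAG00000002258 in ovary, 209 to 257 for TF in cortex, 4.80 to 22.8 for AHSG in ovary and 13.3 to 18.7 for HP in lung. The 5 genes held 7.04% to 7.33% of the liver FPKM. Depth in fragments is unknown, so no counting error can be given for the low levels outside liver.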

Other observations

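With the trace of the reference genes subtracted, an alternative chosen after the data were seen, ALB remained above 0 in all 4 frontal cortex libraries, at 0.927 FPKM in male A, 1.90 in male B, 1.23 in the lactating cow and 1.11 in the dry cow. In the cortex of the lactating cow the reference genes were at 0 ppm. That library had the lowest relative depth (0.780 times the median library), and the reference genes have a lower liver level than ALB. A reference of 0 there does not show that no trace was present. The heart of male B, at 1.31 FPKM, exceeded 3 of these 4 cortex libraries, and the ovary of the lactating cow had 0.744. The median over the cortex libraries was 1.17 FPKM, against 0.393 in kidney, 0.139 in heart and 0 in muscle, ileum and lung. Remainders below 0 were set to 0, as in all 4 muscles, which narrows the spread behind the SE that follows. On this scale cortex was higher than the other labels outside liver by 1.04 (SE 0.15, limma adjusted p 2.67e-07), while the deposited values gave 0.51 (adjusted p 0.471).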
